A study of Mus musculus with 65 samples.

Results

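The TNF superfamily is a set of trimeric signalling ligands and the receptors that bind them. It was described here as 36 mouse genes, 14 ligands and 22 receptors, chosen by name: every gene whose symbol is Tnfsf or Tnfrsf with a number, together with Tnf, Lta, Ltb, Ltbr and Cd40. All 36 were listed in each of the 3 deposited expression tables, among 44500 genes for stem and progenitor cells, 44381 for marrow niche cells and 47530 for niche cells of mice given 5-fluorouracil (5FU), which is toxic to cycling cells. Relatives with other names, such as Fas and its ligand, were kept apart and counted as a separate list.

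RNA was sequenced from cells sorted out of mouse femur and tibia, as 65 libraries in 17 groups, and the values are FPKM, fragments scaled to transcript length and to the mapped fragments of a library. The stem and progenitor groups were sorted from LSK cells, the lineage-negative, Sca1+, Kit+ fraction. Primed (LSKFlk2-CD34-CD49b+, n = 3), ST (LSKFlk2-CD34+, n = 3), MPP (LSKFlk2+CD34+, n = 4) and 5FuReserve (the Reserve gate on day 3 after 5FU, n = 3) were each set against Reserve (LSKFlk2-CD34-CD49b-, n = 4), so these 4 comparisons share their control libraries. Among blood cells of the niche, Mac (CD45+ cells negative for a Pf4-Cre R26-YFP label, CD3, B220 and NK1.1, and F4/80+) and MK (CD45+ and positive for that label) had 4 libraries each. The other niche groups were sorted as CD45Ter119CD31-: Ncad_bone and Ncad_marrow (Tomato+ cells of bone and of marrow), Col23._GFP (Col2.3GFP+), Pecam_GFP (Pecam-gfp+), Cxcl12 rFP (Cxcl12-DsR+), Nestin_GFP (Nestin-GFP+) and Ng2 rFP (Ng2-rfp+), with 4 libraries each, and Lepr (Lepr+, n = 6). The 5Fu_Ncad_tdT_bone and 5Fu_Ncad_tdT_marrow groups are the Tomato-positive cells of each compartment from 5FU-treated mice, on a day the labels do not state, with 3 libraries each. The sources used here give no strain, age or sex and not how many animals made a library. Therefore p-values measure the spread between libraries, which may be technical. A reporter labels whatever cells its promoter drives it in, and in sorted bulk libraries fewer cells of a type and less RNA per cell cannot be told apart.

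In bone marrow the superfamily is best known for 3 circuits. RANKL (Tnfsf11), made by stromal and bone cells, binds RANK (Tnfrsf11a) on osteoclast precursors and makes them into bone-resorbing osteoclasts, and osteoprotegerin (Tnfrsf11b) is a secreted decoy receptor that intercepts RANKL. TNF and the lymphotoxins signal through Tnfrsf1a, Tnfrsf1b and Ltbr to NF-kappaB and, where a receptor carries a death domain, to caspase-8, and BAFF (Tnfsf13b) and APRIL (Tnfsf13) sustain B cells and plasma cells through Tnfrsf13b, Tnfrsf13c and Tnfrsf17.

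Several checks bear on the labels. Libraries had 11649 to 14258 genes at 1 FPKM or more, and relative depth spanned 4.94-fold among stem and progenitor libraries, 7.18-fold among niche libraries and 2.73-fold after 5FU. Depth was estimated from pairs of libraries, and 77.2% of stem and progenitor pairs matched within 0.1 on the log2 scale. For niche libraries and after 5FU 99.9% and 100% matched, so the 4.94-fold range is the least certain. The libraries labelled Mac carried summed neutrophil markers of 392000 to 570000 FPKM beside macrophage markers of 196 to 272 FPKM, and the complement gene C1qa averaged 2.09 FPKM there against 98.9 FPKM in MK. MK replicates 3 and 4 held megakaryocyte markers of 6000 and 10800 FPKM, where replicates 1 and 2 held 38000 and 38200. The sort written as CD31- with Pecam-gfp+ held all 9 endothelial markers, summing to 3130 to 4430 FPKM, and Ng2 rFP libraries summed to more osteoblast and osteocyte markers (45300 to 51100 FPKM) than Col23._GFP libraries (18800 to 30900 FPKM). Across all genes, Reserve replicates 3 and 4 correlated at 0.961 and Primed replicates 2 and 3 at 0.959, above the other pairs of their groups. Col23._GFP replicates 1 and 4 also correlated at 0.959, above the other pairs of that group, and this pair was neither averaged nor left out together.

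Promoter windows of 4 members around which the results below turn are shown from RefSeq on build GRCm38.p6, running from 250 bases before to 50 bases after an annotated start, each 5′ to 3′ on the gene's strand. Ltb encodes the most abundant ligand of Reserve cells, Tnfrsf9 is a co-stimulatory receptor that rose after 5FU, Tnfsf11 is the main stromal ligand and Tnfrsf12a a receptor that set Ncad_marrow apart from both Ncad_bone and Lepr. Ltb lies on the plus strand at chr17:35194257-35194556, Tnfrsf9 on the plus strand at chr4:150927749-150928048 (the RefSeq table also lists an upstream start for it), Tnfsf11 on the minus strand at chr14:78307994-78308293 and Tnfrsf12a on the minus strand at chr17:23677400-23677699. Capitals mark matches on either strand to the kappaB motif or to TGTGGT, a core motif of RUNX factors.
Ltb: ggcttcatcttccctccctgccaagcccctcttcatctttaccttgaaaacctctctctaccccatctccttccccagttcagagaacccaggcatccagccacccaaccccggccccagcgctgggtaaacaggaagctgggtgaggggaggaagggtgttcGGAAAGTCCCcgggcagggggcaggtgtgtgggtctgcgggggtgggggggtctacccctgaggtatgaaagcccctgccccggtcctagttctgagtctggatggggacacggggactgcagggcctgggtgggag
Tnfrsf9: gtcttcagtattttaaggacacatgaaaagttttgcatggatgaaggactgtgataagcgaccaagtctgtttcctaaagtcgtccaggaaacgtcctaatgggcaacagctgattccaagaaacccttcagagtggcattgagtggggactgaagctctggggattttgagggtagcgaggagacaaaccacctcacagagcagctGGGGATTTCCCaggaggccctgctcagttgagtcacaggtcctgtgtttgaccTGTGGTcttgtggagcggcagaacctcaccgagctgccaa
Tnfsf11: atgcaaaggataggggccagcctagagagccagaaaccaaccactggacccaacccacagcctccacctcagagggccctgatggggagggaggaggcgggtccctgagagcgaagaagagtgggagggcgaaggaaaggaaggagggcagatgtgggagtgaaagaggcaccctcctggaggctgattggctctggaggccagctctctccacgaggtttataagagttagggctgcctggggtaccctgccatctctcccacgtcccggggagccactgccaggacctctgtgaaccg
Tnfrsf12a: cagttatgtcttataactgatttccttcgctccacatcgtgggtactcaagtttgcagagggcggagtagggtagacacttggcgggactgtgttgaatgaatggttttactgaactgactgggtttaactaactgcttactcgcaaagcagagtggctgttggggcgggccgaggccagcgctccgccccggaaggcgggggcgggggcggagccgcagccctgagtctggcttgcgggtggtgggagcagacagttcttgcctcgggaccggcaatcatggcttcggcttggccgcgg

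The Ltb window holds 1 kappaB match, which begins 87 bases before the start, and the Tnfrsf9 window holds 2 overlapping ones and a TGTGGT match that does not overlap them. The windows of Tnfsf11 and Tnfrsf12a hold neither string, nor does the window of the upstream Tnfrsf9 start, which is not shown. Of the 36 members, 28 have a RefSeq promoter, with 32 promoters between them. A kappaB match was present for 3 of these members (Ltb, Tnfrsf8 and Tnfrsf9), against 4.51% of all 32851 promoters. TGTGGT was present for 6 members, against 16.8% of all promoters. A member counts if any of its promoters matches, so these counts and the shares per promoter are in unlike units. A match describes letters and no binding was measured.

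Of the 36 members, 29 averaged at least 1 FPKM in some stem or progenitor group, 30 in some niche population and 22 in niche cells after 5FU. Tnfsf15, Tnfsf18 and Tnfrsf8 stayed below 1 FPKM in every group of all 3 tables. Reserve libraries had 22 members at that level, 8 ligands and 14 receptors, and 5FuReserve libraries had 28, the most of any group. Cxcl12 rFP and Ncad_marrow had 15 each, the fewest. Tests were run with limma on log2(FPKM + 1) across all genes with at least 1 FPKM in 3 libraries of a table, so a fold change understates that of low genes, and a gene was called at a Benjamini-Hochberg adjusted p under 0.05. Of the 36 members, 30 passed this filter in each of the first 2 tables and 19 among niche cells after 5FU. Some passed only through the libraries of the group where they were high, and for these the adjusted p given is that of the fit without the filter, as said beside each.

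In Reserve cells the most abundant ligand per length was Ltb, the membrane-anchored lymphotoxin that pairs with Lta and signals through Ltbr. It had 143, 108 and 99.3 FPKM in Primed libraries, 78.3, 67.8 and 61.8 FPKM in ST, 21.9, 12.2, 32.3 and 22.5 FPKM in MPP and 103, 97.8 and 70.3 FPKM in 5FuReserve, against 175, 133, 166 and 210 FPKM in Reserve. The MPP, ST and 5FuReserve libraries all lay below every Reserve library, and 1 Primed library overlapped them. Ltb fell in MPP by 2.94 ± 0.23 on the log2 scale (SE, adjusted p = 2.4e-07), in ST by 1.28 ± 0.25 (adjusted p = 0.0035) and in 5FuReserve by 0.91 ± 0.25 (adjusted p = 0.0083). Its receptor Ltbr fell in MPP, with 9.64, 7.05, 8.06 and 7.0 FPKM against 8.34, 12.3, 15.0 and 16.8 FPKM in Reserve (log2 fold change -0.63 ± 0.19, adjusted p = 0.017), and these groups overlap. The Ltbr call ended without Reserve replicate 3 or 4, with alike pairs averaged and with median-ratio scaling. The partner of Ltb, Lta, was at or below 0.439 FPKM in every library of Primed, ST, MPP and Reserve.

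Tnfrsf1a, the broadly expressed death-domain receptor for TNF, had its lowest values in MPP. It had 24.1, 35.1 and 30.5 FPKM in Primed, 27.6, 28 and 27.8 FPKM in ST, 24.4, 21.3, 20.6 and 19.4 FPKM in MPP and 31, 33 and 31.8 FPKM in 5FuReserve, against 37, 42, 45.4 and 47.3 FPKM in Reserve. No library of the 4 groups reached the lowest Reserve library. The log2 fold changes were -0.52 ± 0.12 in Primed (adjusted p = 0.031), -0.60 ± 0.12 in ST (adjusted p = 0.0041), -0.97 ± 0.11 in MPP (adjusted p = 1.1e-05) and -0.41 ± 0.12 in 5FuReserve (adjusted p = 0.013). The Primed call ended with the replicate block (adjusted p = 0.07), with only the compared groups, with alike pairs averaged and without Reserve replicate 3 or 4 or Primed replicate 1 or 3, where adjusted p ran from 0.088 to 0.14. Tnfrsf1b, the second TNF receptor, which lacks a death domain, fell in MPP (7.21 FPKM on average, against 14.3 in Reserve, log2 fold change -0.91 ± 0.20, adjusted p = 0.0019) and in 5FuReserve (9.27 against 14.3 FPKM, -0.57 ± 0.21, adjusted p = 0.038), a call that ended without Reserve replicate 1, 3 or 4 or 5FuReserve replicate 1 or 2, without the filter, with the replicate block and with alike pairs averaged. TNF itself (Tnf) rose in MPP, with 2.99, 6.44, 3.22 and 4.08 FPKM, against 1.15, 0.551, 0.310 and 0.426 FPKM in Reserve (log2 fold change 1.67 ± 0.36, adjusted p = 0.0018), so that in MPP the ligand was higher and both of its receptors lower.

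**Figure D1:**
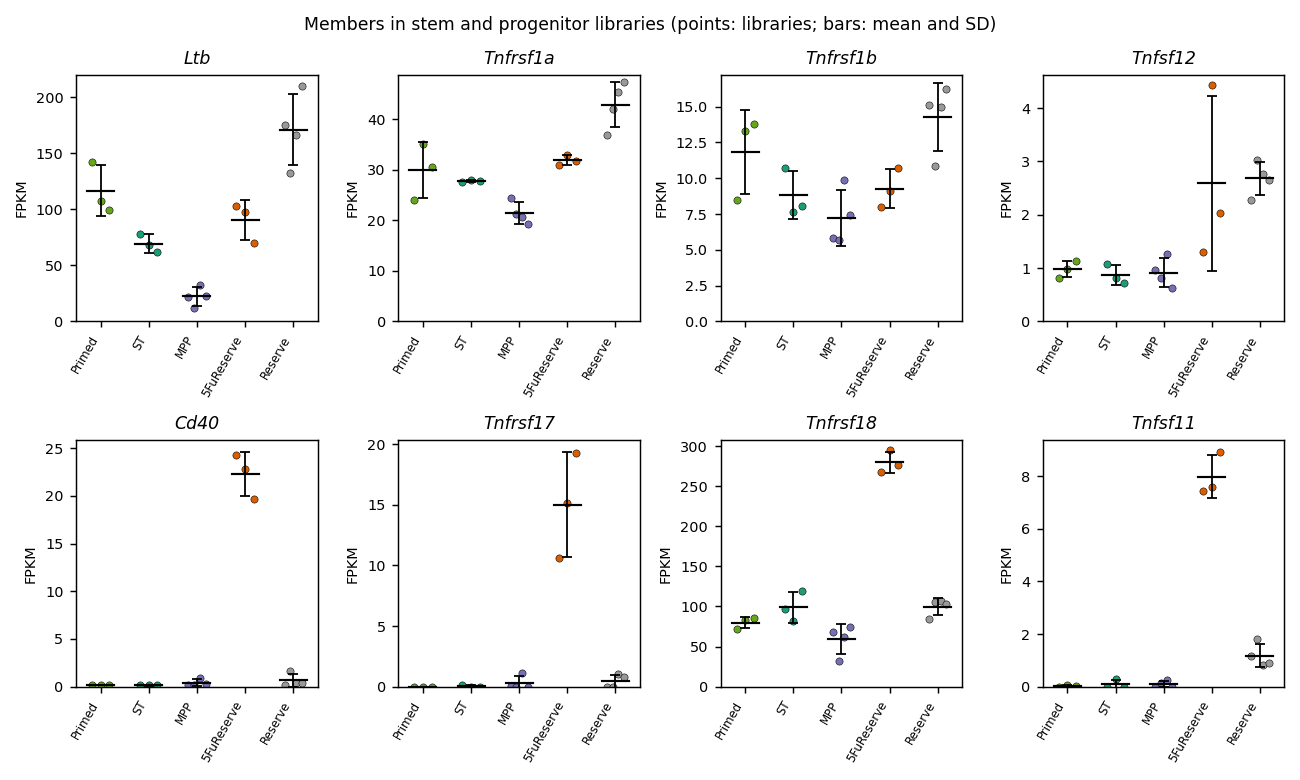
FPKM of 8 members in each stem and progenitor library, with Primed, ST, MPP and 5FuReserve left of Reserve; points are libraries, bars the group mean and SD. Ltb averages 22.3 FPKM in MPP against 171 FPKM in Reserve, and Cd40, Tnfrsf17 and Tnfsf11 are highest in the 3 5FuReserve libraries.

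Against Primed, the group nearest to Reserve by gate, 4 of the 30 tested members were called, all lower, where 3.87% of all genes were called (1.61% higher, 2.26% lower). Besides Tnfrsf1a these were Tnfsf11, Tnfsf12 (TWEAK, the ligand of Tnfrsf12a) and Tnfrsf25, a death-domain receptor found mainly on lymphocytes. Tnfsf12 had 0.823, 0.990 and 1.14 FPKM in Primed against 2.28, 3.03, 2.77 and 2.65 FPKM in Reserve, and the libraries did not overlap (log2 fold change -0.89 ± 0.23, adjusted p = 0.045). Tnfsf11 averaged 0.0277 FPKM in Primed against 1.18 FPKM in Reserve (log2 fold change -1.07 ± 0.17, adjusted p = 0.0025), and Tnfrsf25 averaged 0.188 against 1.68 FPKM (-1.19 ± 0.28, adjusted p = 0.029). These levels are low, so each rests on few reads. The count depended on the libraries: with any 1 library of either group left out, or with the alike pairs averaged, 1 or 2 members were called. Tnfsf12 lost its call without any 1 of the 7 libraries, and Tnfrsf25 without 5 of them, while Tnfsf11 kept its call each time. The Tnfsf12 call also ended with a pseudocount of 0.1, without the filter, with the replicate block and with alike pairs averaged. The Tnfsf11 call ended with only the compared groups.

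The same 3 low members were also lower in ST and in MPP. In ST, 6 of 30 tested members were called, all lower, against 12.7% of all genes (6.21% lower), and in MPP 17 were called, 2 higher and 15 lower, against 41.0% of all genes (12.7% higher, 28.3% lower). The median log2 fold change of the members tested was -0.24 in Primed, -0.39 in ST and -0.68 in MPP, where all genes had medians of 0.00, -0.02 and -0.20. Scaling by median ratios moved the MPP median of all genes by 0.19 and the higher share of all MPP calls to 48.5%, against 31% unscaled, and it ended the calls of Ltbr, Tnfrsf13b and Tnfsf10, which left 14. In ST libraries Tnfrsf25 was listed at 0 in all 3, Tnfsf12 averaged 0.869 FPKM against 2.68 FPKM in Reserve (log2 fold change -0.98 ± 0.23, adjusted p = 0.011) and Tnfsf11 averaged 0.0947 against 1.18 FPKM (-0.98 ± 0.17, adjusted p = 0.0011).

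Among the other MPP calls were the receptor for BAFF, Tnfrsf13c, with a mean of 6.29 FPKM against 16.4 FPKM in Reserve (log2 fold change -1.29 ± 0.23, adjusted p = 0.00051), and Tnfsf4, the OX40 ligand of antigen-presenting cells, with 1.02, 0.061, 0.036 and 0 FPKM against 4.41, 3.55, 2.03 and 1.66 FPKM (-1.62 ± 0.32, adjusted p = 0.001). Tnfsf8, the CD30 ligand, was the other member that rose in MPP, at 0.938 FPKM against 0.054 FPKM in Reserve (log2 fold change 0.86, adjusted p = 0.0044 without the filter, which it passed only through MPP and 5FuReserve libraries); the call ended without MPP replicate 1. APRIL (Tnfsf13) fell in MPP, with 4.12, 2.23, 1.68 and 4.51 FPKM against 7.88, 7.29, 8.73 and 8.43 FPKM in Reserve (-1.20 ± 0.32, adjusted p = 0.0087). Its ST libraries had 14.4, 13.1 and 19.2 FPKM, above every Reserve library, but the difference was not called (0.85 ± 0.35, adjusted p = 0.14). Reads of Tnfsf12 and Tnfsf13 are uncertain because exons of both overlap a read-through gene on their strand. Decoy-type receptors Tnfrsf22, Tnfrsf23 and Tnfrsf26 lie side by side on chromosome 7 as near copies, which also makes their split of reads uncertain.

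Tnfrsf18 (GITR), a co-stimulatory receptor of T cells, was the most abundant receptor per length in Reserve libraries. It had 71.6, 82.5 and 85.3 FPKM in Primed, 96.2, 81.4 and 119 FPKM in ST and 68.5, 31.8, 61.8 and 74.4 FPKM in MPP, against 84.3, 105, 106 and 103 FPKM in Reserve. The MPP libraries all lay below Reserve (log2 fold change -0.81 ± 0.21, adjusted p = 0.0063). An antisense gene, Gm16008, overlaps its exons, and no source used here says that the library kit keeps strand. Tnfrsf13b (TACI), a receptor for BAFF and APRIL, had 21.1, 15.5, 21.9 and 30.6 FPKM in MPP against 21.0, 32.0, 49.0 and 47.9 FPKM in Reserve, which overlap (log2 fold change -0.69 ± 0.24, adjusted p = 0.034). That call ended when 1 of 5 of the 8 libraries was left out, among them Reserve replicates 3 and 4. It also ended without the filter, with scaling, with only the compared groups and with alike pairs averaged. Summed B cell markers were 30.0 to 77.2 FPKM across these 4 groups. T and NK cell markers summed to 185 to 238 FPKM in Primed, 411 to 491 FPKM in ST and 498 to 566 FPKM in MPP, against 61.2 to 99.2 FPKM in Reserve, and their part in the members' values was not tested.

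After 5FU the Reserve gate showed another set of members. In 5FuReserve 18 of 30 tested members were called, 13 higher and 5 lower, against 48.3% of all genes, 25.5% higher and 22.8% lower. Of the 13, 6 (Cd40, Lta, Tnfrsf17, Tnfrsf9, Tnfsf11 and Tnfsf8) would not have passed the filter without 5FuReserve libraries, so the filter favoured a rise in them. Tnfsf8 also needed 1 MPP library to pass. Among the 24 other tested members 7 were higher and 5 lower. With Reserve replicates 3 and 4 left out 15 were called, with Ltb, Tnfrsf1a, Tnfrsf1b and Tnfsf4 lost and Tnfsf9 gained. Cd40, the receptor for CD40 ligand on B cells and other antigen-presenting cells, had 24.3, 22.9 and 19.7 FPKM against 0.189, 1.67, 0.426 and 0.345 FPKM in Reserve (log2 fold change 3.89, adjusted p = 3.9e-08 without the filter). Tnfrsf17 (BCMA), a plasma cell receptor for BAFF and APRIL, had 10.6, 15.2 and 19.3 FPKM against 0, 0, 1.03 and 0.770 FPKM (3.50, adjusted p = 1.3e-06 without the filter). Every 5FuReserve library was far above every Reserve library for both genes. Of the other receptors of this circuit, Tnfrsf13c averaged 52.2 FPKM against 16.4 FPKM in Reserve (log2 fold change 1.62 ± 0.25, adjusted p = 0.00011) and Tnfrsf13b averaged 81.5 against 37.5 FPKM (1.17 ± 0.26, adjusted p = 0.0019).

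Summed markers of other cell types moved with this comparison. All 8 B cell markers were called higher, and they summed to 1520 to 1560 FPKM in 5FuReserve against 48.9 to 77.2 FPKM in Reserve, with Cd79a at 497 ± 17.3 FPKM against 0.292 ± 0.339 FPKM (SD, n = 3 and 4). Of 10 T and NK cell markers, 8 were called higher (sums of 445 to 571 FPKM against 61.2 to 99.2 FPKM), and macrophage markers summed to 104 to 131 FPKM against 18.4 to 28.3 FPKM. The stem cell gene Procr was at 43.2 ± 3.01 FPKM against 84.0 ± 7.21 FPKM. The part of these cell types in the members' values was not tested.

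Tnfrsf18 and Tnfrsf25 also rose, while Tnfrsf4 (OX40), another co-stimulatory receptor of T cells, averaged 2.90 FPKM in 5FuReserve against 4.33 FPKM in Reserve and did not pass the test (log2 fold change -0.47 ± 0.34, adjusted p = 0.27). Tnfrsf18 had 268, 295 and 276 FPKM in 5FuReserve against 84.3, 105, 106 and 103 FPKM in Reserve (log2 fold change 1.48 ± 0.22, adjusted p = 7.9e-05). Tnfrsf25 had 3.57, 6.91 and 11.6 FPKM against 2.17, 2.09, 1.07 and 1.39 FPKM (1.54 ± 0.28, adjusted p = 0.00038), and Tnfrsf9 (4-1BB), induced on activated T and NK cells, averaged 2.13 against 0.088 FPKM (1.52, adjusted p = 4.9e-05 without the filter). Among ligands, Lta had 4.35, 10.2 and 5.31 FPKM against 0, 0.276, 0 and 0 FPKM (2.77, adjusted p = 2e-07 without the filter), and RANKL (Tnfsf11) had 7.45, 7.58 and 8.94 FPKM against 1.16, 1.81, 0.838 and 0.916 FPKM (2.06, adjusted p = 2.8e-07 without the filter). Tnf averaged 5.85 FPKM against 0.610 FPKM (2.10 ± 0.38, adjusted p = 0.00042). The groups did not overlap for any of these members except Tnfrsf4, and Lta no longer passed the filter when any 1 of the 5FuReserve libraries was left out. Members that fell besides Ltb, Tnfrsf1a and Tnfrsf1b were Tnfsf13, at 2.93 FPKM against 8.08 FPKM (log2 fold change -1.32 ± 0.35, adjusted p = 0.0062), and Tnfrsf22, at 7.32 against 11.6 FPKM (-0.65 ± 0.23, adjusted p = 0.033). The Tnfrsf22 call ended without the filter, with only the compared groups, with alike pairs averaged and without Reserve replicate 1 or 2 or 5FuReserve replicate 1 (adjusted p = 0.21 without the last).

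**Figure D2:**
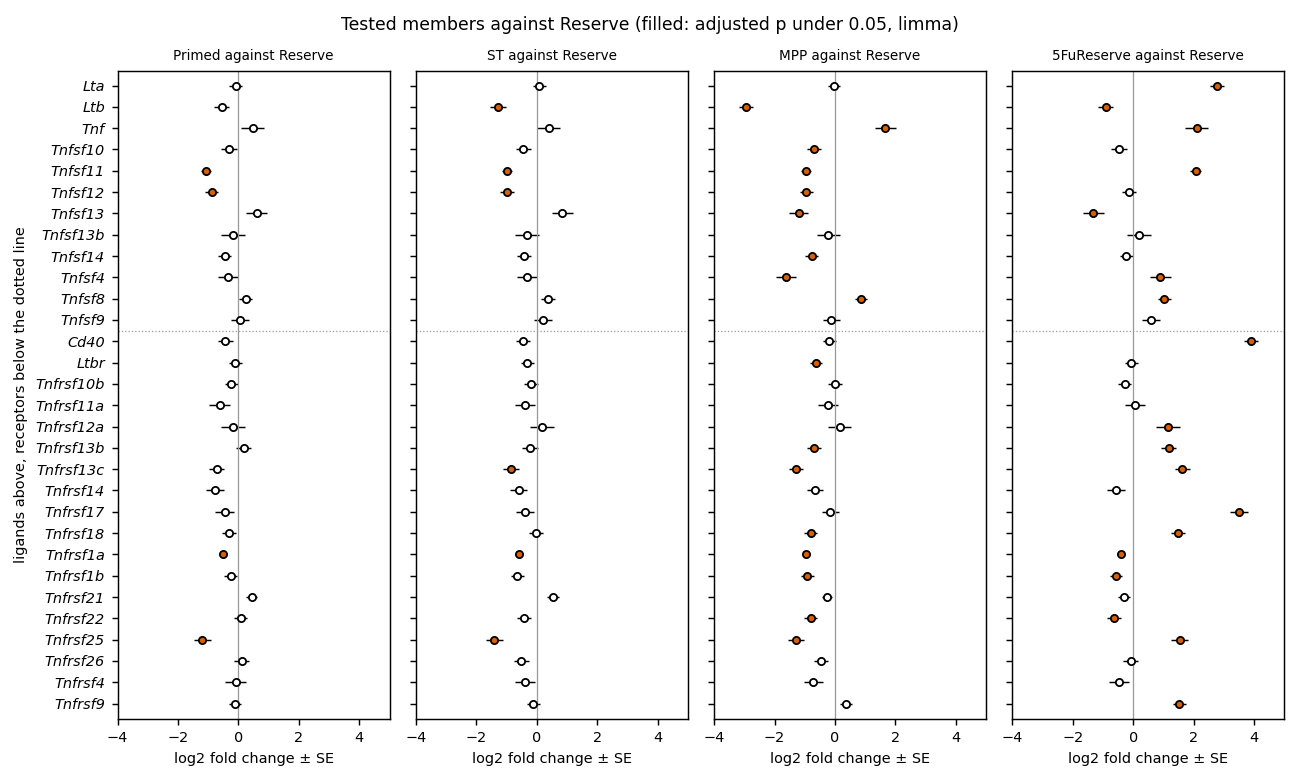
Log2 fold change of FPKM + 1 (x axis, with SE) of the 30 tested members in Primed, ST, MPP and 5FuReserve against Reserve, ligands above and receptors below the dotted line; filled points have an adjusted p under 0.05. All called members lie left of 0 in Primed and ST, 15 of 17 do in MPP, and 13 of 18 lie right of 0 in 5FuReserve.

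Among relatives outside the naming rule, the death receptor Fas averaged 1.17 FPKM in Primed against 4.30 FPKM in Reserve (log2 fold change -1.30 ± 0.32, adjusted p = 0.038) and 0.296 FPKM in MPP (-2.06 ± 0.30, adjusted p = 8.4e-05). Its ligand Fasl averaged 17.3 FPKM in 5FuReserve and was listed at 0 in every Reserve library. Of 7 tested relatives, 1 fell in Primed, 1 rose in ST, 1 rose and 4 fell in MPP, and 3 rose and 2 fell in 5FuReserve. As shares these are 14.3%, 14.3%, 71.4% and 71.4%, where 3.87%, 12.7%, 41.0% and 48.3% of all genes were called. Of 32 intracellular pathway genes, from TRAF adaptors to NF-kappaB subunits and their inhibitors, none was called in Primed by limma (4 at an unadjusted p under 0.05), 3 fell in ST, 1 rose and 11 fell in MPP, and 9 rose and 4 fell in 5FuReserve. The pathway shares called were 9.38% in ST, 37.5% in MPP and 40.6% in 5FuReserve, each below the share of all genes given above. Nfkbia, the feedback inhibitor of NF-kappaB, had 49.9 FPKM in MPP against 117 FPKM in Reserve (log2 fold change -1.23 ± 0.15, adjusted p = 1.9e-05), and the adaptor Traf1 had 1.55 against 19.8 FPKM (-2.99 ± 0.38, adjusted p = 2.3e-05). The NF-kappaB subunit Rel was the pathway gene that rose in MPP, at 6.14 against 3.20 FPKM (0.77 ± 0.13, adjusted p = 0.00026). In 5FuReserve Casp8, the caspase that death receptors activate, rose to 98.6 FPKM against 51.7 FPKM in Reserve (0.93 ± 0.18, adjusted p = 0.00069).

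In the niche, 29 of 30 tested members differed across the 10 populations in homeostasis by limma's F test, against 89.0% of all genes, and Tnfrsf4 (OX40) was the member that was not called (adjusted p = 0.083). RANKL (Tnfsf11) divided the populations into tiers. It had 64.0, 64.6, 53.3 and 64.6 FPKM in Cxcl12 rFP and 38.4, 49.9, 47.5 and 42.7 FPKM in Nestin_GFP, and neither group overlapped the next in order. Lepr (26.7 to 36.1 FPKM, median 30.0), Ncad_marrow (18.8 to 27.6 FPKM) and Ncad_bone (16.3 to 29.1 FPKM) overlapped each other in turn. Col23._GFP averaged 10.9 ± 2.4 FPKM and Ng2 rFP 8.15 ± 1.9 FPKM (SD, n = 4 each), so the libraries richest in osteoblast markers held less RANKL mRNA than the 5 other mesenchymal populations. Pecam_GFP, MK and Mac averaged 0.959, 0.459 and 0.138 FPKM.

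Osteoprotegerin (Tnfrsf11b) followed another order. It had 58.9, 76.2, 15.6 and 24.9 FPKM in Ncad_bone, above every library of the other 9 populations, then 11.4, 8.40, 10.8 and 11.2 FPKM in Ng2 rFP and 14.9, 5.76, 3.17 and 14 FPKM in Col23._GFP. Cxcl12 rFP averaged 0.886 FPKM, Nestin_GFP, Ncad_marrow and Lepr averaged 0.343, 0.337 and 0.298 FPKM, and it was listed at 0 in every MK and Pecam_GFP library. The decoy and the ligand it binds were therefore highest in different sorts. RANK (Tnfrsf11a) averaged 2.29 FPKM in Mac, 1.57 FPKM in MK and 1.19 FPKM in Pecam_GFP and stayed below 1 FPKM in the mesenchymal groups.

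**Figure D3:**
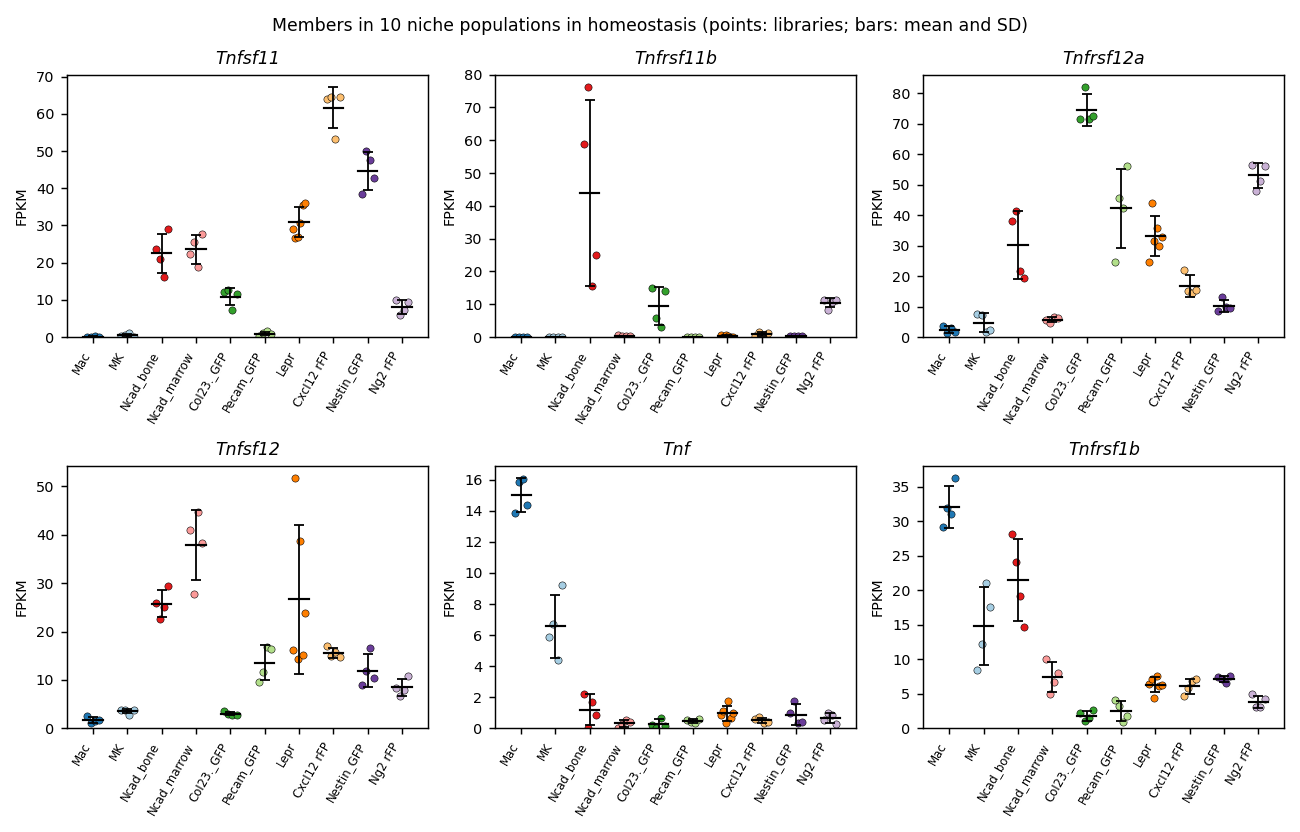
FPKM of 6 members in each library of the 10 niche populations, blood cell sorts at the left; points are libraries, bars the group mean and SD. Tnfsf11 is highest in Cxcl12 rFP (61.6 FPKM on average), Tnfrsf11b in Ncad_bone (43.9 FPKM), Tnfrsf12a in Col23._GFP (74.6 FPKM) and Tnf in Mac (15.0 FPKM).

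Ncad_bone cells were set against Ncad_marrow cells, the same reporter in the other compartment. Of 30 tested members 10 were called, 8 higher and 2 lower in bone, against 24.6% of all genes (14.7% higher, 9.95% lower). Tnfrsf11b averaged 43.9 FPKM in Ncad_bone against 0.337 FPKM in Ncad_marrow (log2 fold change 4.82 ± 0.32, adjusted p = 3e-14). Tnfrsf12a (Fn14), the injury-induced receptor of TWEAK, had 38.1, 41.3, 21.7 and 19.4 FPKM against 5.53, 4.75, 6.52 and 6.13 FPKM (2.14 ± 0.29, adjusted p = 4.9e-07). For both receptors Ncad_bone replicates 1 and 2 were the high pair, and they also held the higher cartilage marker sums: the group ranged from 414 to 1540 FPKM in Ncad_bone against 10.6 to 22.1 FPKM in Ncad_marrow, where Acan and Col9a1 were at 0 in all libraries. Osteoblast and osteocyte markers summed to 10800 to 11900 FPKM in Ncad_bone against 7180 to 8810 FPKM in Ncad_marrow. Neutrophil markers summed to 1420 to 10600 FPKM against 355 to 7860 FPKM, and 6 of 9 were called higher. Their part in the members' values was not tested, and without those 2 libraries 9 members were called, with Ltbr and Tnfrsf1a lost and Tnf gained.

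Tnfrsf1b had 28.2, 24.0, 19.1 and 14.6 FPKM in Ncad_bone against 10.1, 4.96, 6.65 and 8.06 FPKM in Ncad_marrow (log2 fold change 1.41 ± 0.25, adjusted p = 5.7e-05). Tnfrsf21 (DR6), a death-domain receptor, had 57.7, 61.6, 51.3 and 44.3 FPKM against 25.8, 21.6, 19.8 and 26.0 FPKM (1.17 ± 0.22, adjusted p = 9.2e-05). In both cases all bone libraries were above all marrow libraries. Tnfsf9 (the 4-1BB ligand) rose too, at 6.4 FPKM against 1.19 FPKM (1.99 ± 0.38, adjusted p = 0.00013), as did Tnfrsf23, a decoy receptor for TRAIL in mice, at 2.29 against 0.227 FPKM (1.40 ± 0.34, adjusted p = 0.0024). Its neighbour Tnfrsf22 went the other way, at 2.15 against 4.89 FPKM (-0.94 ± 0.27, adjusted p = 0.0079). RANKL did not pass the test between the compartments: the means were 22.5 FPKM in bone and 23.6 FPKM in marrow.

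Against Col23._GFP, the osteoblast reporter, Ncad_bone had 18 of 30 tested members called, 11 higher and 7 lower, against 45.2% of all genes (20.5% higher, 24.7% lower). Marrow stroma markers summed to 19100 to 24600 FPKM in Ncad_bone against 780 to 1730 FPKM in Col23._GFP, with all 8 called higher. Endothelial markers summed to 10.3 to 34.5 against 144 to 177 FPKM, with 8 of 9 called lower. Osteoblast and osteocyte markers summed to 10800 to 11900 against 18800 to 30900 FPKM (1 of 8 called higher, 4 lower). Their part in the members' values was not tested. Tnfrsf21 averaged 53.7 FPKM in Ncad_bone against 4.54 FPKM (log2 fold change 3.35 ± 0.22, adjusted p = 5.4e-15), Tnfrsf19 (TROY), a receptor of progenitor cells, 68.3 against 16.2 FPKM (2.02 ± 0.16, adjusted p = 7.4e-13), and Tnfrsf1b 21.5 against 1.85 FPKM (2.98 ± 0.25, adjusted p = 5.9e-12). TNF receptor Tnfrsf1a had 165, 136, 118 and 120 FPKM in Ncad_bone against 44.7, 19.7, 25.0 and 37.0 FPKM in Col23._GFP (2.11 ± 0.25, adjusted p = 1.5e-08). The TWEAK pair split between these sorts. TWEAK (Tnfsf12) had 25.9, 22.6, 25.0 and 29.4 FPKM in Ncad_bone against 3.53, 3.07, 2.71 and 2.85 FPKM (2.72 ± 0.26, adjusted p = 1.1e-10), and its receptor Tnfrsf12a averaged 30.1 FPKM against 74.6 FPKM (-1.35 ± 0.29, adjusted p = 0.00019). Of 32 pathway genes 18 rose and 3 fell, among them Nfkbie, an NF-kappaB inhibitor, at 30.6 against 3.53 FPKM (2.84 ± 0.21, adjusted p = 1.3e-13).

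Ncad_marrow cells were set against Lepr cells, which share their marrow stroma markers (23200 to 27400 FPKM in Ncad_marrow, 17600 to 23400 FPKM in Lepr). Neutrophil markers summed to 355 to 7860 FPKM in Ncad_marrow against 11800 to 20000 FPKM in Lepr, with 7 of 9 called lower, and Lepr replicate 3 alone held megakaryocyte markers of 6830 FPKM, where the other Lepr libraries held 28.2 to 64.1 FPKM. Their part in the members' values was not tested. Here 3 of 30 tested members were called, 1 higher and 2 lower, against 12.6% of all genes (6.68% higher, 5.95% lower). Tnfrsf12a had 5.53, 4.75, 6.52 and 6.13 FPKM in Ncad_marrow, and in the 6 Lepr libraries it ran from 24.8 to 44.1 FPKM, with a median of 32.2 (log2 fold change -2.33 ± 0.26, adjusted p = 3.8e-08). No Lepr library came near the marrow values. Tnfsf9 averaged 1.19 against 4.72 FPKM (-1.61 ± 0.34, adjusted p = 0.0012), and TRAIL (Tnfsf10), which triggers apoptosis through Tnfrsf10b, averaged 0.879 against 0.188 FPKM (0.63 ± 0.17, adjusted p = 0.0079), both with overlapping libraries. TWEAK (Tnfsf12) was in the reverse order to its receptor without passing the test, at 37.9 FPKM in Ncad_marrow against 26.6 FPKM in Lepr (0.64 ± 0.24, adjusted p = 0.074). The inhibitor Nfkbia was also lower in Ncad_marrow, at 211 FPKM against 604 FPKM in Lepr (-1.47 ± 0.17, adjusted p = 4.4e-08), among 6 pathway genes called, 2 higher and 4 lower.

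**Figure D4:**
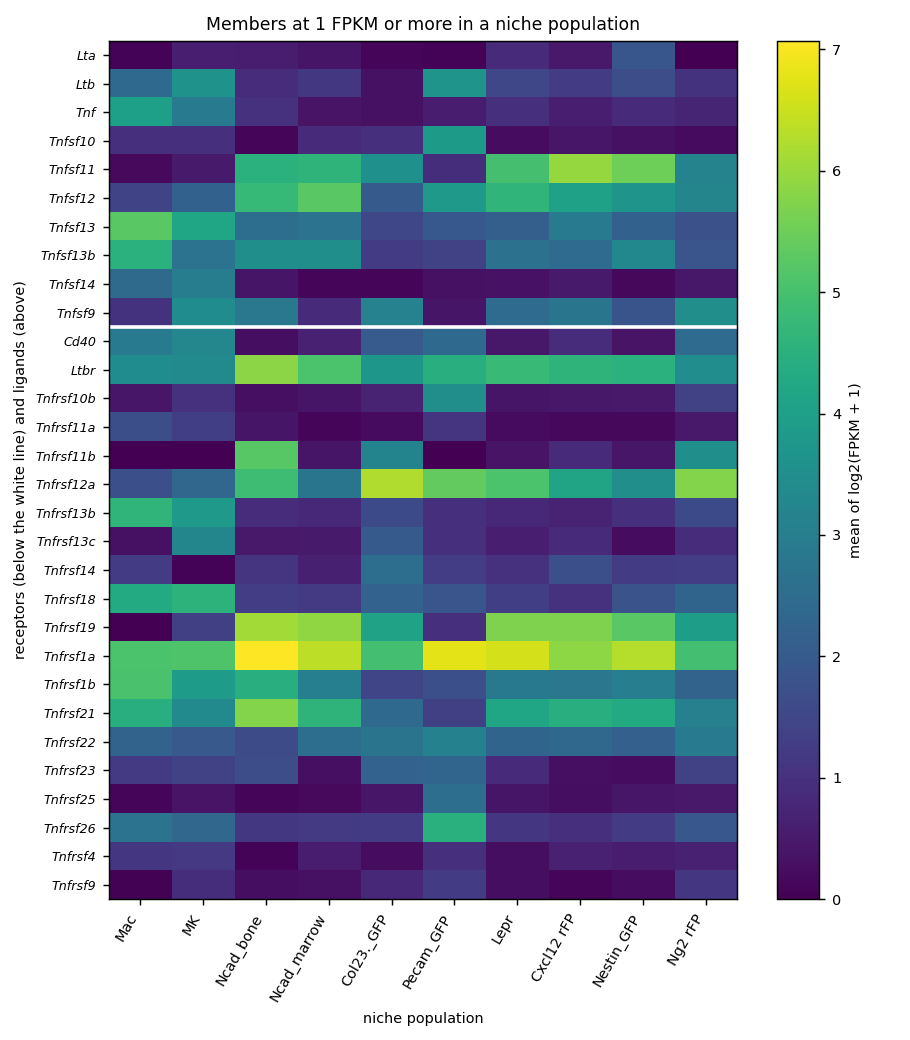
Mean log2(FPKM + 1) of the 30 members that reach 1 FPKM in some niche population, in 10 populations (columns), ligands above and receptors below the white line. Tnfrsf1a is high throughout, Tnfsf11 and Tnfrsf19 are high in mesenchymal sorts, Tnf, Tnfsf13 and Tnfrsf13b in Mac and MK, and Tnfsf10, Tnfrsf10b and Tnfrsf26 in Pecam_GFP.

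The Pecam_GFP sort, whose endothelial markers summed to 3130 to 4430 FPKM against 18.3 to 42.5 FPKM in Lepr, differed from Lepr in 18 of 30 tested members, 10 higher and 8 lower, against 41.7% of all genes (19.7% higher, 22.0% lower). Its macrophage markers summed to 377 to 666 against 40.4 to 94.3 FPKM (2 of 10 called higher). B cell markers summed to 45.1 to 85.1 against 9.72 to 31.5 FPKM (3 of 8 called higher). Megakaryocyte markers had a median sum of 497 against 48 FPKM (1 of 9 called higher). Their part in the members' values was not tested. TRAIL and its death receptor were high together. Tnfsf10 had 8.78, 17.3, 13.9 and 15.1 FPKM in Pecam_GFP against 0.188 FPKM on average in Lepr (log2 fold change 3.60 ± 0.17, adjusted p = 1e-19), and Tnfrsf10b had 11.1, 13.2, 8.77 and 8.65 FPKM against 0.340 FPKM (3.08 ± 0.16, adjusted p = 6.3e-18). Both were higher in every Pecam_GFP library than in any library of the other 9 populations. Tnfrsf26 averaged 21.7 against 1.19 FPKM (3.39 ± 0.18, adjusted p = 1e-17) and Tnfrsf25, which passed the filter only through Pecam_GFP, 5.33 against 0.339 FPKM (2.14, adjusted p = 3.4e-10 without the filter). Ltb had 7.98, 15.5, 9.80 and 15.3 FPKM against 1.05 to 2.73 FPKM, with a median of 1.83, over the 6 Lepr libraries (2.16 ± 0.31, adjusted p = 3.3e-07). Tnfrsf19 fell to 1.0 FPKM in Pecam_GFP against 51.7 FPKM in Lepr (-4.74 ± 0.14, adjusted p = 1.5e-24). Casp8, which TRAIL receptors engage, averaged 122 FPKM against 20.1 FPKM (2.52 ± 0.17, adjusted p = 6.6e-15), among 14 pathway genes higher and 6 lower.

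In the blood cell sorts Mac and MK, pooled and set against the 7 mesenchymal populations, 22 of 30 tested members were called, 14 higher and 8 lower, against 72.9% of all genes (29.8% higher, 43.1% lower). All 9 neutrophil markers were called higher, with sums of 392000 to 570000 FPKM in Mac and 85100 to 370000 FPKM in MK. No mesenchymal library exceeded 25500 FPKM. All 8 B cell, all 10 T and NK cell and all 9 megakaryocyte markers were called higher too. Of 10 macrophage markers, 9 were called higher and 1 lower, and all 8 marrow stroma markers were called lower. Their part in the members' values was not tested. TNF and APRIL led the ligands that were higher. Tnf had 13.9, 15.8, 16.0 and 14.3 FPKM in Mac and 5.91, 6.73, 4.41 and 9.25 FPKM in MK, against a mean of 0.694 FPKM over the mesenchymal groups (log2 fold change 2.75 ± 0.15, adjusted p = 1.6e-18). Tnfsf13 had 32.3, 37.3, 44.4 and 35.7 FPKM in Mac and 25.4, 14.7, 14.6 and 15.3 FPKM in MK, against 4.07 FPKM (2.46 ± 0.14, adjusted p = 4.1e-18). Of receptors, Tnfrsf13b averaged 18.5 against 1.24 FPKM (3.17 ± 0.18, adjusted p = 1.4e-17). Tnfsf14 (LIGHT), a ligand of Ltbr, averaged 5.67 FPKM against 0.290 FPKM (2.40, adjusted p = 8.6e-15 without the filter, which it passed only through these sorts). Lower members were led by Tnfrsf19 (0.794 against 42.5 FPKM, -4.56 ± 0.09, adjusted p = 2.1e-31) and Tnfsf11 (0.299 against 28.9 FPKM, -4.27, adjusted p = 6.1e-27 without the filter, which it passed only through the mesenchymal sorts).

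Between these sorts, 14 of 30 tested members differed, 7 higher and 7 lower in Mac, against 31.9% of all genes (8.75% higher, 23.2% lower; the higher share of calls was 27.4%, and 45.3% after median-ratio scaling), and the median log2 fold change of all genes was -0.12 before and -0.00 after median-ratio scaling. BAFF (Tnfsf13b) had 19.5, 25.6, 29.5 and 15.8 FPKM in Mac against 2.23, 2.34, 12.2 and 11.1 FPKM in MK (log2 fold change 1.84 ± 0.36, adjusted p = 0.00012), and Tnfrsf1b had 29.1, 31.9, 31 and 36.2 FPKM against 8.49, 12.2, 21.1 and 17.5 FPKM (1.13 ± 0.25, adjusted p = 0.00057). MK replicates 3 and 4 were the MK libraries nearest to Mac for both genes. Those libraries also held more neutrophil markers (370000 and 313000 FPKM) than MK replicates 1 and 2 (109000 and 85100 FPKM). The BAFF receptor Tnfrsf13c ran the other way, averaging 0.255 FPKM in Mac against 3.32, 4.39, 16.9 and 18 FPKM in MK (-2.91 ± 0.37, adjusted p = 1.1e-07), and B cell markers summed to 11.0 to 21.7 FPKM in Mac against 173, 202, 677 and 601 FPKM in the same MK libraries. Their part was not tested, and without MK replicates 3 and 4 the count of members was 13, with Ltb and Tnfrsf10b lost and Tnfrsf12a gained. Tnfsf9 had 1.09, 1.01, 1.11 and 1.04 FPKM in Mac against 17.2, 10.3, 11.0 and 4.48 FPKM in MK (-2.39 ± 0.38, adjusted p = 5.8e-06).

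After 5FU, Tomato-positive cells of bone were set against those of marrow within their own table, and 5 of 19 tested members were called, 4 higher and 1 lower, against 22.9% of all genes (12.5% higher, 10.4% lower). Tnfrsf23 had 15.2, 9.76 and 10.7 FPKM in 5Fu_Ncad_tdT_bone against 2.04, 2.37 and 3.94 FPKM in 5Fu_Ncad_tdT_marrow (log2 fold change 1.78 ± 0.25, adjusted p = 0.0043). Osteoprotegerin (Tnfrsf11b) had 22.2, 29.2 and 28.4 FPKM against 13.4, 16.8 and 18.5 FPKM (0.68 ± 0.17, adjusted p = 0.032), and Tnfrsf1b fell to 2.52, 3.74 and 2.88 FPKM against 7.25, 5.19 and 6.87 FPKM (-0.88 ± 0.20, adjusted p = 0.021). All 3 genes separated the groups without overlap. Tnfsf9 averaged 4.13 against 0.677 FPKM but passed the filter only through bone, and without the filter it was not called (1.75, adjusted p = 0.071). Tnfrsf19 averaged 41.6 against 29.7 FPKM (0.47 ± 0.12, adjusted p = 0.038). Beside these, osteoblast and osteocyte markers summed to 13100 to 15700 FPKM in bone against 3740 to 4350 FPKM in marrow, and marrow stroma markers to 3840 to 4060 against 11900 to 15100 FPKM; their part was not tested. The count fell to between 1 and 3 when any 1 of the 6 libraries was left out, and Tnfrsf23 alone was called without bone replicate 3. Tnfrsf23 was also the only member called without the filter, where Tnfrsf11b, Tnfrsf1b and Tnfrsf19 lost their calls as Tnfsf9 did. Single libraries left out ended the calls of Tnfrsf11b and Tnfrsf19 in 5 of 6 cases each, and that of Tnfrsf1b in 4. Of 32 pathway genes 3 fell, Tnip1, Nfkb1 and Tnfaip3, which encode regulators or a subunit of NF-kappaB.

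Whether the bone and marrow cells differed by the same amount after 5FU as in homeostasis was tested as an interaction, in which a constant offset of a gene between the tables cancels. Here 6 of 21 tested members were called, 1 with a larger and 5 with a smaller difference of bone over marrow after 5FU, against 18.9% of all genes (8.23% larger, 10.6% smaller). The log2 difference of Tnfrsf11b was 0.68 ± 0.17 after 5FU and 4.82 ± 0.32 in homeostasis, an interaction of -4.14 ± 0.58 (adjusted p = 0.00037). Marrow cells had 13.4 to 18.5 FPKM after 5FU and averaged 0.337 FPKM in homeostasis, a pair of levels that crosses tables and was not tested. Tnfrsf12a had the same form, at 92.3, 98.9 and 82.8 FPKM in bone and 77.3, 69.7 and 70.2 FPKM in marrow after 5FU, with log2 differences of 0.33 ± 0.11 after 5FU and 2.14 ± 0.29 in homeostasis (interaction -1.81 ± 0.32, adjusted p = 0.0019).

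Tnfrsf1b changed sign between the conditions, with a log2 difference of bone over marrow of -0.88 ± 0.20 after 5FU and 1.41 ± 0.25 in homeostasis (interaction -2.29 ± 0.35, adjusted p = 0.00064). Tnfrsf21 had 8.72, 3.76 and 7.76 FPKM in bone and 6.44, 9.36 and 8.67 FPKM in marrow after 5FU, which overlap, where in homeostasis bone lay above marrow (interaction -1.46 ± 0.32, adjusted p = 0.0074). Tnfrsf1a gave -0.86 ± 0.27 (adjusted p = 0.043) and Tnfrsf22 gave 1.37 ± 0.37 (adjusted p = 0.021). Marrow stroma markers moved in the interaction too, 7 of 8 called lower (median -1.35), as did cartilage markers, with 4 of 5 called lower and cartilage sums after 5FU of 43.4 to 51.3 FPKM in bone against 12.1 to 14.8 FPKM in marrow. Their part was not tested, and without Ncad_bone replicates 1 and 2 the interaction was called for 5 members, all but Tnfrsf1a. The Tnfrsf1a call also ended without the filter, with median-ratio scaling, with the replicate block and when 1 of 9 of the 14 libraries was left out, with adjusted p up to 0.1. Tnfrsf22 lost its call without 5FU bone or marrow replicate 2. RANKL was not called in either compartment comparison: it had 40.4, 38.7 and 43.8 FPKM in bone and 46.2, 52.7 and 50.1 FPKM in marrow after 5FU (log2 fold change -0.27 ± 0.11, adjusted p = 0.13).

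**Figure D5:**
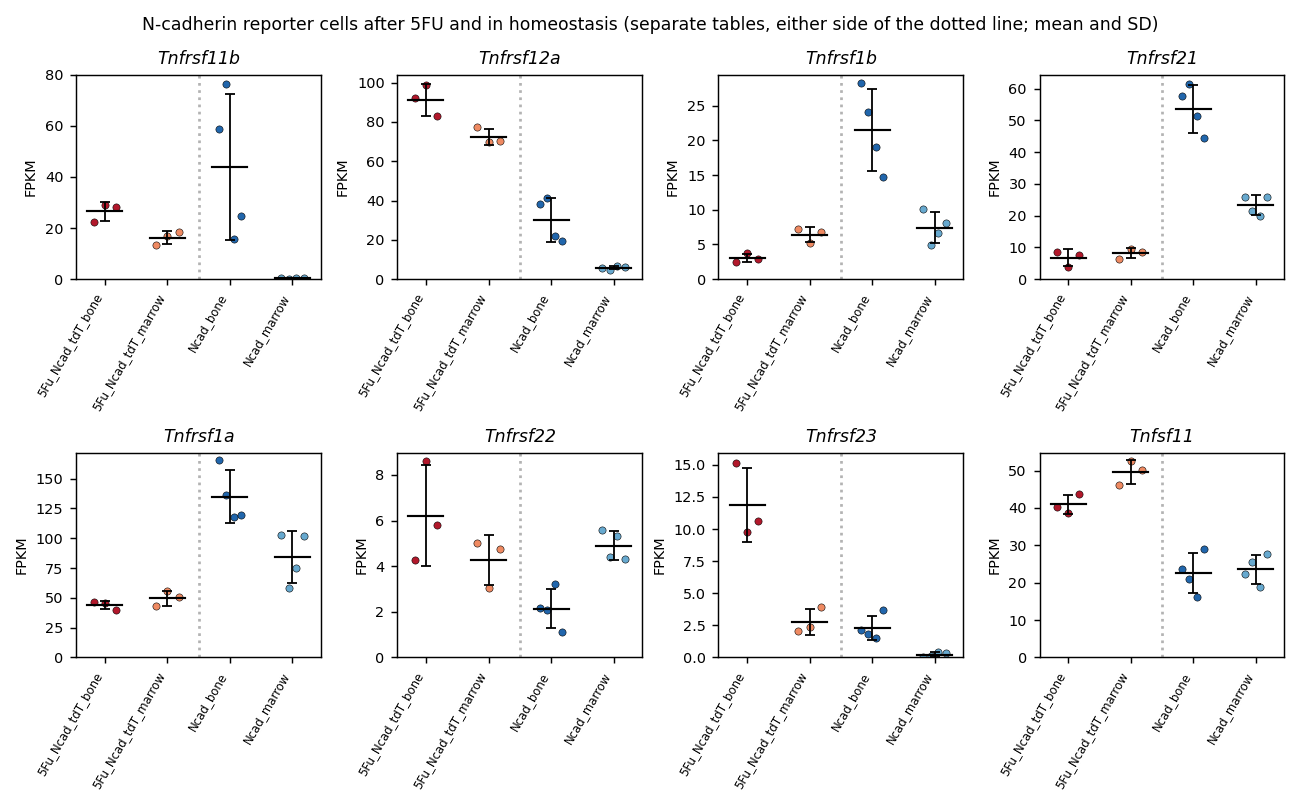
FPKM of 8 members in Tomato-positive bone and marrow cells, 5FU-treated (left of the dotted line) and in homeostasis (right); points are libraries, bars the mean and SD, and levels across the line come from separate tables. Tnfrsf11b averages 26.6 FPKM in bone and 16.2 FPKM in marrow after 5FU, and 43.9 FPKM and 0.337 FPKM in homeostasis.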

How the data were processed

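FPKM per gene was deposited by the authors in 3 tables of replicate values. The submitters' processing notes name TopHat2 2.0.13, Cufflinks 2.2.1 and bcl2fastq 2.18, with mm10 as genome build; filters and joint normalization of the tables are not given in the sources used here. Sheets of group means were not used. FPKM keeps no absolute depth; relative depth came from steps of low values and limits precision for genes near 1 FPKM. Genes with a missing value (15, 28 and 4) were left out.

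Values were tested as log2(FPKM + 1) with limma 3.58.1 in R 4.3.3 (eBayes with trend), 1 model per table and 1 joint model for the interaction, on genes at 1 FPKM or more in at least 3 libraries, with Benjamini-Hochberg adjustment over all genes and a threshold of 0.05. The script was tested on simulated data. Members that passed this filter only through the group where they were high are given with the p of the fit without it. Gene positions and overlaps came from the GENCODE annotation of the same genome and promoters from RefSeq. Groups came from the labels. Alternatives were a pseudocount of 0.1, no filter, median-ratio scaling, a replicate block, only the compared groups and each library left out; averaging alike libraries and leaving out pairs were added after seeing the data. The members, gene lists and tests were chosen with earlier results of these data known. Named were called members at 1 FPKM or more in the higher group, up to 8 with the smallest p per comparison, fixed ligand and receptor sets, and the 4 list genes with the smallest p, of which some are given; a few further members were named after their values were seen.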

Additional observations from a re-analysis of the deposited data

Results flagged for a closer look

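The difference of bone over marrow changed between 5FU and homeostasis, by the interaction test, for Tnfrsf11b (-4.14 on the log2 scale), Tnfrsf1b (-2.29), Tnfrsf12a (-1.81), Tnfrsf21 (-1.46) and Tnfrsf22 (1.37). For Tnfrsf1a the value was -0.86, with a call that ended without the filter, with scaling, with the replicate block and when 1 of 9 of the 14 libraries was left out.

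A single library stood apart from the others of its group, by Dixon's test, in 9 of 128 gene and group pairs with a mean of at least 5 FPKM, and chance flags about 1 in 20. Groups of 3 libraries were not checked, which are Primed, ST, 5FuReserve and both 5FU niche groups. Members outside the named calls were not checked either. Reserve replicate 1 had Tnfrsf18 at 84.3 FPKM, where the others had 103 to 106 FPKM, and Reserve replicate 2 had Tnfsf14 at 14.6 FPKM, where the others had 6.55 to 7.86 FPKM. MPP replicate 1 had Tnfrsf22 at 7.65 FPKM, where the others had 5.60 to 5.91 FPKM. In Cxcl12 rFP, Tnfsf11 was 53.3 FPKM in replicate 3 (others 64.0 to 64.6 FPKM) and Tnfrsf12a was 22.0 FPKM in replicate 1 (others 14.5 to 15.6 FPKM). Col23._GFP replicate 2 had Tnfrsf12a at 82.2 FPKM, where the others had 71.6 to 72.8 FPKM, and Ncad_marrow replicate 4 had Tnfrsf19 at 67.2 FPKM, where the others had 54.5 to 56.2 FPKM. Mac replicate 3 had Tnfrsf18 at 26.8 FPKM (others 16.6 to 17.2 FPKM) and MK replicate 1 had Tnfsf13 at 25.4 FPKM (others 14.6 to 15.3 FPKM).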

How the results depend on the processing

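Counts of called members stayed within 1.5 times the reported count in 226 of 245 alternatives, and no named member changed sign. Many alternatives left 1 library out of the comparisons with 22 or 29 of 30 members called, where a count can hardly leave that range. A count also hides which members it holds. In Ncad_bone against Ncad_marrow, the Ltbr call ended when 1 of 6 of the 8 libraries was left out, and the Tnfrsf1a call when 1 of 4 was. The counts outside that range concern 3 comparisons, and the cause was not tested. Primed against Reserve gave 4 members, 1 with the replicate block, 1 with only the compared groups, 1 with the alike pairs averaged, and 1 to 2 when any of its 7 libraries was left out. Ncad_marrow against Lepr gave 3, and 5 with only the compared groups. For bone against marrow after 5FU the count was 5, 1 with no filter on low values, 3 with the replicate block, and 1 to 3 when a library was left out. Labels give groups the same replicate numbers. Deviations of same-numbered libraries from their group means correlated at -0.065 to 0.066 in 31 stem and progenitor pairs. In 180 niche pairs the correlations ran from -0.16 to 0.15, with 4 over 0.1, and in 3 pairs after 5FU from -0.016 to 0.07. Low correlations cannot show whether same-numbered libraries came from the same animals, so pairing is unknown. The block moved no other count beyond 1.5 times. Among 572 alternatives for 87 single calls, up to 8 with the smallest p per comparison, 40 ended the call. Of these, 8 came with no filter and 7 with the block. Leaving out libraries was counted once per call, at its largest adjusted p, and ended 11 calls, so 40 understates how often a call ended. Library by library, the Tnfsf12 call in Primed ended without any 1 of 7. The Tnfrsf13b call between Mac and MK ended without 7 of 8. Members near 1 FPKM rest on few reads.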
